A study of Mus musculus with 8 samples.

Results

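The 10 genes described here are receptors, inhibitors and intracellular effectors of Wnt signalling: Ryk, Ror2, Fzd1, Fzd2, Fzd7, Lrp6, Sfrp1, Sfrp2, Ctnnb1 and Axin2. They were read at every probe that carried their symbol in the array table, 13 probes of 25697, and they are 10 of its 18138 gene symbols. The list was selected with the measured values of the moR-21 comparison known, so the differences of these genes between the treatments are given as a description, with no test. The samples were primary mouse aortic smooth muscle cells, grown out of pieces of several mouse aortas, and transfected with either a moR-21 mimetic or a scrambled control oligonucleotide, both at 5 nM. Total RNA was collected 48 h later and hybridized to Illumina mouse BeadChips, 3 samples per treatment. The RNA of control 1 and that of moR-21 sample 3 went on 2 arrays apiece, A and B, which makes 8 arrays for 6 samples. Nothing in the labels says that the samples came from separate animals or cultures, and the p-values below therefore measure the spread between these samples, which may be technical.

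A moR is a microRNA-offset RNA, a small RNA cut from the flank of a microRNA inside the same hairpin precursor. moR-21 lies next to miR-21 on the 5′ arm of the mouse Mir21a hairpin, and the 2 RNAs carry different seeds, the bases near the 5′ end through which small RNAs pair with their targets. Both sequences are shown because the treatment supplied a mimic of the first and not of the second. They were taken from RefSeq (GRCm38.p6, minus strand of chromosome 11). Capitals mark bases 2 to 8 of each RNA, and the hairpin entry starts at base 2 of moR-21, as read from the seed windows in the study's text. The 3′ end of the mimetic is not given in the sources used here.
moR-21 side of the hairpin (chr11:86584142-86584158): UGUACCAccuugucgga
miR-21a-5p (chr11:86584120-86584141): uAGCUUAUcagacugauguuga

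Wnt proteins are secreted ligands that bind Frizzled receptors at the cell surface. In the canonical branch a Frizzled joins the co-receptor Lrp5 or Lrp6, the complex that destroys beta-catenin is held back, and beta-catenin enters the nucleus and works with transcription factors of the Tcf and Lef family. In the non-canonical branches, for which Wnt5a is the best known ligand, the receptors Ryk and Ror2 take part with Frizzleds and the signal runs through planar polarity proteins, small GTPases or calcium. Secreted Frizzled-related proteins such as Sfrp1 and Sfrp2 bind Wnts outside the cell, and in vascular smooth muscle the pathway is known for roles in proliferation, migration and the response to injury.

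The unit below is the log2 of the quantile-normalized signal, on which a difference of 1 is a doubling, and levels of different probes are not set against each other. A probe was tested if its detection p-value, the share of negative control beads at least as bright, was under 0.01 on at least 1 array, which held for 11651 probes and 8727 genes. Calls needed more than a 1.3-fold change and a limma adjusted p under 0.002, the cutoffs of the study. In all, 6.96% of tested probes were called, 3.12% as higher and 3.85% as lower after moR-21, and in 45.0% the 3 moR-21 samples did not overlap the 3 controls. Median intensities were 102 to 109 per array, and 10285 to 10512 probes per array were detected. The labels name smooth muscle cells in the source field and endothelial cells, as AoECs, in the description. Of 10 smooth muscle markers 6 were tested, with Acta2 at a log2 level of 13.18 in the controls, while Cnn1, Myh11, Actg2 and Myocd were detected on no array. Tagln, at 6.74 in the controls, was detected on only 4 arrays and Lmod1, at 6.79, on 3. Of 9 endothelial markers 2 were tested, Vwf and Eng, while Pecam1, Cdh5, Kdr, Tek, Tie1, Emcn and Esam were detected on no array. All 6 fibroblast markers were tested, with Dcn at 13.34 in the controls.

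Of the 13 probes, 12 were tested, standing for 9 of the 10 genes, and 10 of them were detected on all 8 arrays. Described by the cutoffs alone, both probes of Ryk lay past them and no probe of the other genes did. Read at their brightest probes, 7 of the 9 tested genes had a higher mean after moR-21 and 2 a lower one. The samples of the treatments did not overlap at 7 of the 12 tested probes. Because the genes were picked with this contrast known, nothing is read from these counts against the shares of all probes above.

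**Figure D1:**
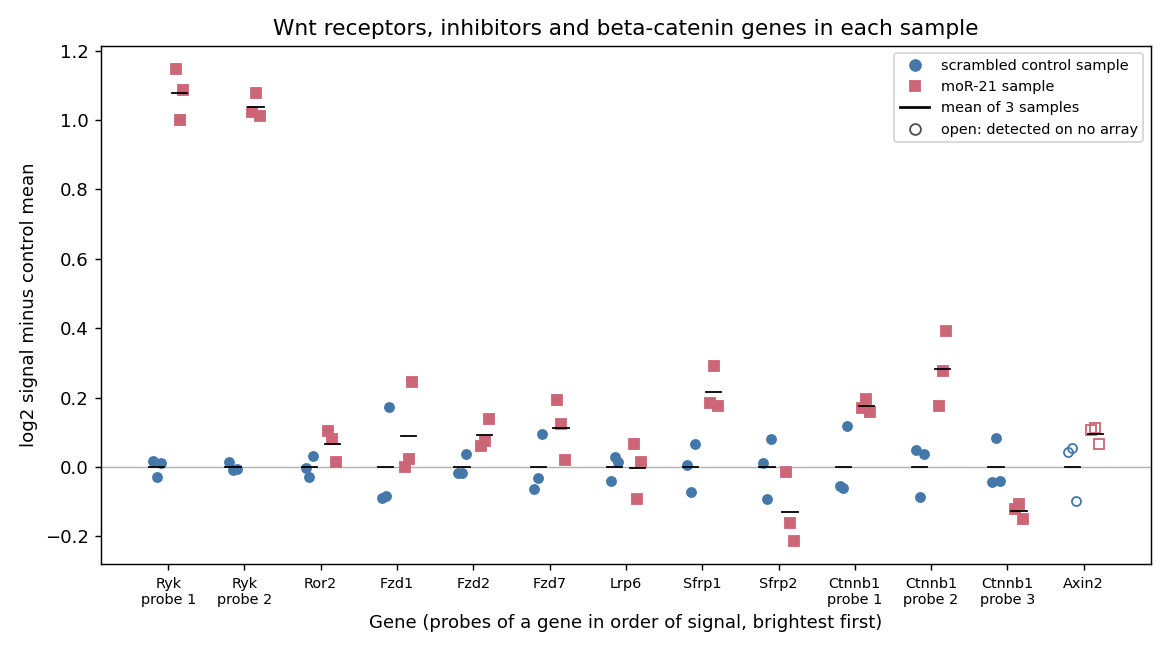
The log2 signal of each of the 13 probes in each sample, with the mean of the 3 controls of that probe set to 0 on the vertical axis; circles are controls, squares are moR-21 samples, black lines are means of 3 samples, and open symbols mark Axin2, detected on no array. The 2 Ryk probes stand 1.08 and 1.04 above their controls, and the next highest mean, that of the second Ctnnb1 probe, stands 0.28 above.

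Ryk encodes a single-pass transmembrane receptor of the tyrosine kinase family whose kinase domain is inactive and whose outer part binds Wnt ligands. At its brighter probe, ILMN_2667020, the control samples measured 10.09, 10.04 and 10.08. The moR-21 samples measured 11.21, 11.07 and 11.16 at that probe. The lowest moR-21 sample thus stood far above the highest control, with means of 10.07 ± 0.026 and 11.15 ± 0.073 (SD, n = 3). The difference was 1.08 (standard error 0.050), a 2.11-fold higher signal.

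The second Ryk probe, ILMN_3159826, is dimmer and gave the same picture. Its controls were 8.65, 8.63 and 8.64 and its moR-21 samples 9.66, 9.72 and 9.65. The difference of 1.04 (standard error 0.045), 2.05-fold, was 0.04 below that of the brighter probe. The table assigns both probes to the same Ryk transcript, variant 2, so they do not show whether other Ryk transcripts moved with it. In bulk RNA such as this, more RNA per cell and more cells of a kind that carry the transcript cannot be told apart.

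The separation of Ryk was already present in the deposited intensities, before any normalization. At the brighter probe the control arrays read 1083 (1A), 1269 (1B), 963 (2) and 1058 (3). The moR-21 arrays read 2407 (1), 2054 (2), 2281 (3A) and 2214 (3B). The brightest control array was array B of control 1, and it too lay below every moR-21 array. After normalization that array differed from array 1A of the same RNA by 0.09 and array 3B from 3A by 0.04, against a difference between treatments of 1.08.

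**Figure D2:**
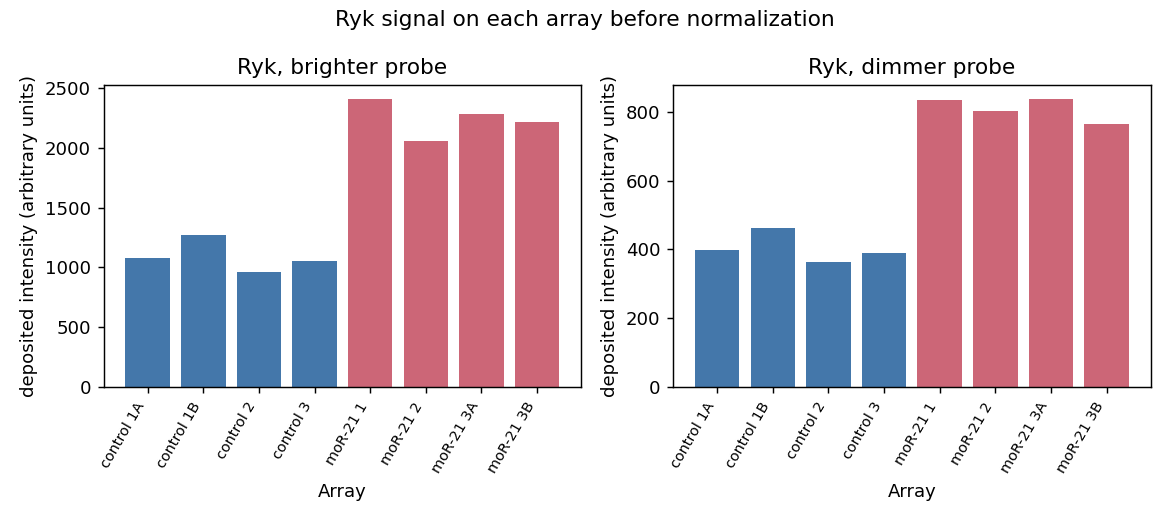
Deposited Ryk intensity, in arbitrary units on a linear axis that starts at 0, on each of the 8 arrays for the brighter probe (left) and the dimmer probe (right); each bar is 1 array, blue for control and red for moR-21. Control arrays reach 1269 and 461, and moR-21 arrays start at 2054 and 764.

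Ryk lies on chromosome 9 of GRCm38.p6, from 102834920 to 102908307, on the plus strand, and spans 73.4 kb. The 250 bases before its RefSeq start (chr9:102834670-102834919) are shown because it is the gene of the list whose RNA differed most. Capitals mark its CpG dinucleotides, of which this stretch holds 33, with 65.2% G or C.
Ryk upstream: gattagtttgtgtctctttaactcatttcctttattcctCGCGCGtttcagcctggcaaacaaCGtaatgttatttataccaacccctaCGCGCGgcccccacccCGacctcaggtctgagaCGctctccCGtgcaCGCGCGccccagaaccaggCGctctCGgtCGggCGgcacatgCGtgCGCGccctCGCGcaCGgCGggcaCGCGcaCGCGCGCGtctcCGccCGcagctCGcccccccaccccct
With the first 50 bases after the start added, the Ryk window of 300 bases holds 42 CpGs, where the median over 32851 such mouse windows is 7. This is not particular to Ryk, since the available windows of other listed genes hold from 16 (Fzd1) to 51 (Ctnnb1). The letters CTTTGAT, a form of the sequence that Tcf and Lef factors bind, were searched on both strands as CTTTGAT and ATCAAAG. They were in none (0) of the 8 windows available for 7 of the 10 genes, Ryk included, and in 3.73% of all windows. This says only that these letters are not in these windows.

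Ror2 is the other non-canonical receptor of the list, a receptor tyrosine kinase that binds Wnt5a. Its controls measured 7.05, 7.03 and 7.09 and its moR-21 samples 7.16, 7.13 and 7.07. The treatments overlapped, since moR-21 sample 3 lay below control 3. The difference was 0.07 (standard error 0.046), and with a background correction (normexp) it was 0.17.

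The 3 Frizzled genes of the list encode seven-pass receptors for Wnts, and their differences lay between 0.09 and 0.11. Fzd2 measured 7.79, 7.80 and 7.85 in the controls and 7.87, 7.89 and 7.95 after moR-21. Its treatments did not overlap, but the gap between the closest samples was narrow and the difference was 0.09 (standard error 0.046). Array B differed from array A by 0.13 in control 1, more than the treatments did, and by −0.06 in moR-21 sample 3. Fzd7 measured 8.61, 8.64 and 8.76 in the controls and 8.86, 8.79 and 8.69 after moR-21. Here control 3 stood above moR-21 sample 3, and the difference was 0.11 (standard error 0.057).

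Fzd1 was close to the detection limit, detected on 4 of 8 arrays. Its controls were 6.71, 6.72 and 6.98 and its moR-21 samples 6.80, 6.83 and 7.05, so that sample 3 of either treatment stood above the rest and the treatments overlapped. The difference was 0.09 (standard error 0.077), and 0.30 with background correction. For Fzd1, array B differed from array A by −0.11 in control 1 and by 0.12 in moR-21 sample 3. The difference between treatments rested on single samples, being 0.01 without moR-21 sample 3 and 0.18 without control 3. Lrp6, the co-receptor that joins a Frizzled in the canonical branch, was detected on only 1 array, that of moR-21 sample 1. Its controls were 6.73, 6.80 and 6.78 and its moR-21 samples 6.84, 6.68 and 6.78. The moR-21 samples lay on either side of all controls, and the difference was −0.003 (standard error 0.051), with a sign that turned when single samples were left out.

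The 2 secreted inhibitors had differences of opposite sign. Sfrp1 measured 7.40, 7.32 and 7.46 in the controls and 7.58, 7.69 and 7.57 after moR-21. Every moR-21 sample was above every control, with a difference of 0.22 (standard error 0.052), 1.16-fold. With background correction the difference was 0.40.

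Sfrp2 measured 7.55, 7.45 and 7.62 in the controls and 7.53, 7.38 and 7.33 after moR-21. Of these, moR-21 sample 1 lay inside the range of the controls. The difference was −0.13 (standard error 0.060), while array B differed from array A by −0.18 in control 1 and by 0.06 in moR-21 sample 3. The distance between treatments was thus smaller than that between the repeat arrays of control 1 and larger than that between those of moR-21 sample 3.

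Ctnnb1 encodes beta-catenin, the protein that carries the canonical signal into the nucleus, and its 3 probes did not go the same way. The brightest, ILMN_2994460, measured 10.22, 10.21 and 10.39 in the controls and 10.44, 10.47 and 10.43 after moR-21, a difference of 0.17 (standard error 0.054). The middle one, ILMN_2696575, measured 8.75, 8.62 and 8.74 against 8.88, 8.98 and 9.10, a difference of 0.28 (standard error 0.060). The dimmest, ILMN_2616556, measured 7.01, 7.14 and 7.02 against 6.93, 6.95 and 6.91, a difference of −0.13 (standard error 0.049). At each of the 3 probes the treatments did not overlap, yet the third ran in the opposite direction to the others. At the middle probe the 2 arrays of moR-21 sample 3 differed by 0.34, more than the treatments did. At the brightest probe these 2 arrays differed by 0.17, as much as the treatments did. No direction is given for Ctnnb1 as a gene.

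Axin2, a negative regulator of beta-catenin whose transcription is a widely used readout of canonical Wnt signalling, was detected on no array. Its detection p-values ran from 0.154 to 0.996 over the 8 arrays, and its deposited intensities from 87.1 to 104 lay in the range of the negative control beads. No fold change is given, and a change in its RNA was not detectable with this probe.

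The rest of the pathway was read from lists by role that hold 117 genes, the 10 above included. These lists too were chosen with earlier results of these data known. Their counts and p-values are therefore a description and not a test of the pathway. Of these, 110 were on the array and 53 were tested, each at its brightest detected probe. The mean was higher after moR-21 in 26 and lower in 27, with a median difference of −0.001, beside 0.006 over all 8727 tested genes. In all, 4 genes, Ryk among them, were called higher and 1 lower, or 3 and 1 of 44 without the genes described above. Over all tested genes 3.41% were called higher and 4.38% lower. With an adjusted p under 0.05 and no fold cutoff, 22 of the 53 passed, beside 36.1% of all tested genes. Rspo2, among the 22, was tested through its control arrays alone. The 4 calls outside the list were the ligand Wnt5a, the non-canonical effector Nfatc1, and Wisp2 and Cd44 from the beta-catenin target list.

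**Figure D3:**
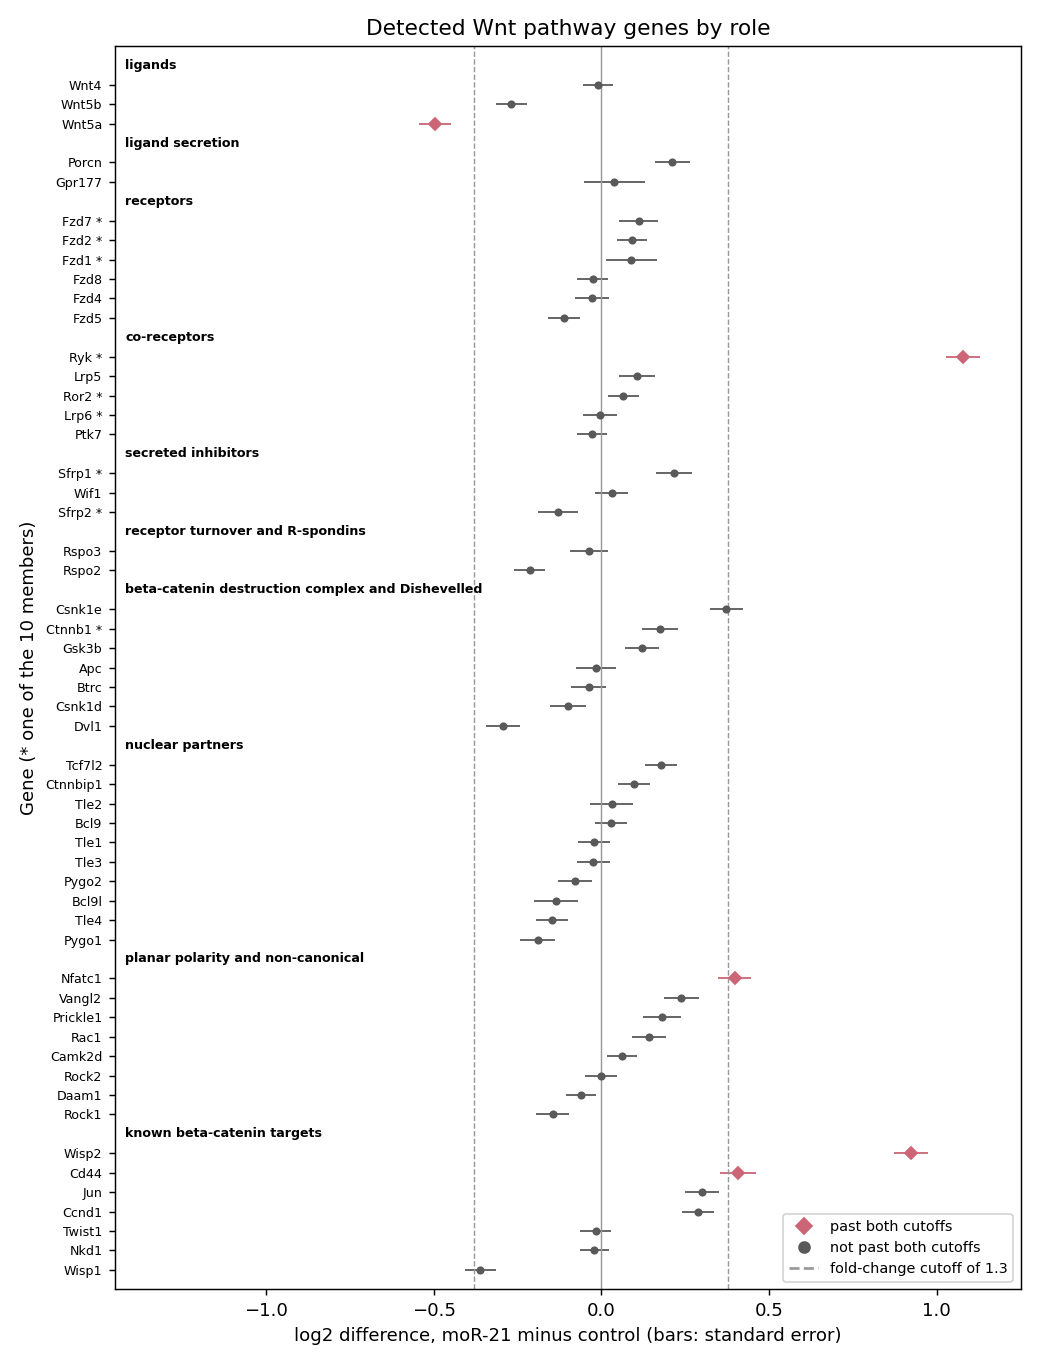
Log2 difference (moR-21 minus control, horizontal axis, bars are standard errors over 3 samples per treatment) of the 53 tested Wnt pathway genes at their brightest probe, grouped by role; diamonds passed both cutoffs, dashed lines mark the fold-change cutoff of 1.3, and an asterisk marks the listed genes. Ryk (1.08) and Wisp2 (0.92) stand apart on the right and Wnt5a (−0.50) on the left.

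Among the ligands, 3 of 19 Wnt genes were tested. Wnt5a, a non-canonical ligand that both Ryk and Ror2 can bind, measured 8.33, 8.25 and 8.19 in the controls and 7.74, 7.76 and 7.79 after moR-21. All moR-21 samples were below all controls, and Wnt5a fell by 0.50 on the log2 scale (standard error 0.049, limma adjusted p = 3.30e-06), that is 1.41-fold. A dimmer Wnt5a probe had a difference of −0.14 and was not called (limma adjusted p = 0.035).

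Wnt5b, the close relative of Wnt5a, was detected on all 4 control arrays and on 1 of the moR-21 arrays. It measured 7.10, 7.12 and 7.03 in the controls and 6.85, 6.80 and 6.80 after moR-21. The groups did not overlap, and the difference of −0.27 (limma adjusted p = 4.47e-04) was under the fold-change cutoff. With background correction it was −0.82 and was called. Wnt4 had a difference of −0.01 and was detected on 2 arrays. The other 16 Wnt genes of the list were not detected.

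**Figure D4:**
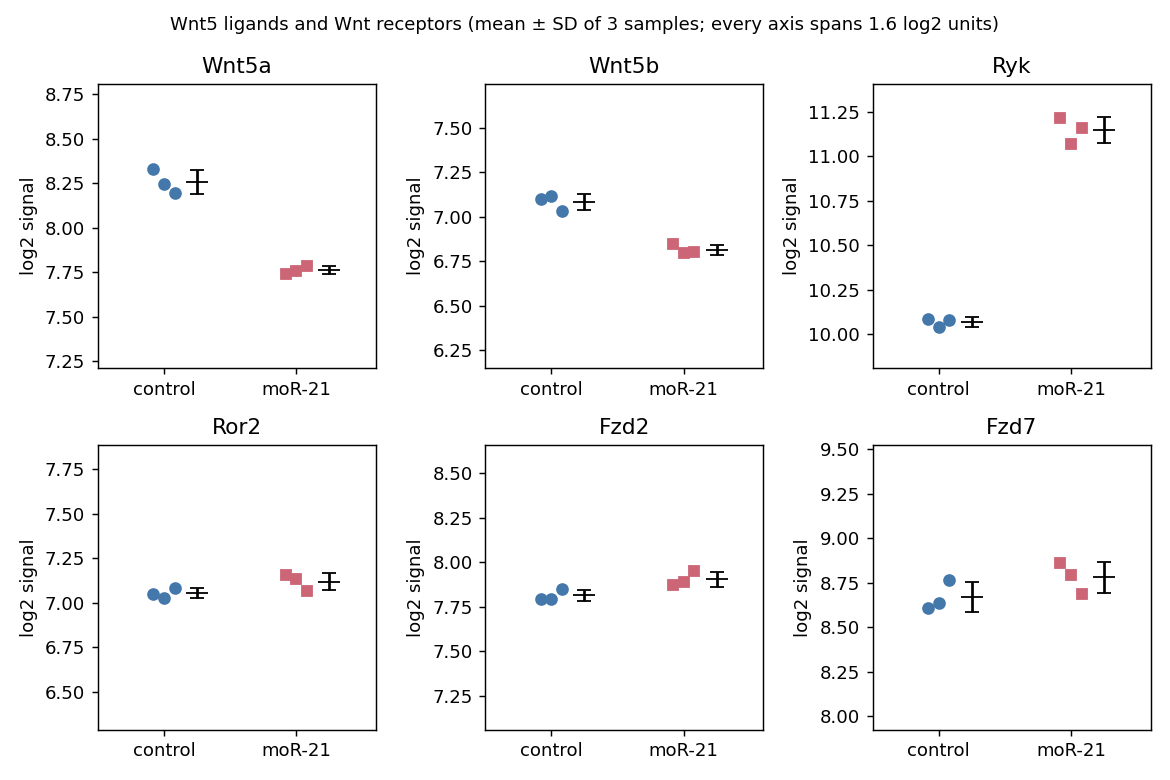
Log2 signal of the ligands Wnt5a and Wnt5b and of the receptors Ryk, Ror2, Fzd2 and Fzd7 in each sample (circles control, squares moR-21), with the mean ± SD of 3 samples beside them; all vertical axes have the same span. Wnt5a lies lower after moR-21 by 0.50 and Ryk higher by 1.08, while Ror2 and Fzd7 overlap between the treatments.

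For ligand release, Porcn, the enzyme that attaches the lipid Wnts need, had a difference of 0.21 (0.07 at a dimmer probe), and the carrier Gpr177 had a difference of 0.04 that changed sign in 3 of the alternative settings. Neither was called. Among the receptors beyond the list, the difference was −0.11 for Fzd5, and among the co-receptors 0.11 for Lrp5, which was 0.28 with background correction and 0.06 without moR-21 sample 2. Of the 3 tested Frizzled genes beyond the list 0 were called by limma and 1, Fzd5, had an unadjusted p under 0.05, as had 44.6% of all tested genes.

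Of 13 secreted inhibitors 3 were tested, Sfrp1, Sfrp2 and Wif1, and the Dickkopf genes were not detected. In the R-spondins, secreted proteins that strengthen Wnt signals, Rspo2 was detected on 3 control arrays and on 0 moR-21 arrays, which makes it at least 1.04-fold lower after moR-21. It was among the tested probes through its control arrays alone, so no p is given. Rspo3 was detected on every array and had a difference of −0.04.

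Besides Ctnnb1 and Axin2, 6 of 12 genes of the destruction complex and Dishevelled list were tested and 0 were called by limma, with 3 at an unadjusted p under 0.05, beside the 44.6% of all genes. Csnk1e, a casein kinase that phosphorylates Dishevelled, came closest, with 9.47, 9.36 and 9.42 in the controls and 9.84, 9.73 and 9.79 after moR-21. Its difference of 0.37 (limma adjusted p = 5.43e-05) was just short of the fold-change cutoff, and it was called with array A alone (0.38), without control 1 (0.40) and without moR-21 sample 2 (0.40). Dvl1, a Dishevelled gene, had a difference of −0.29, and −0.08 at a dimmer probe. In the nucleus, 10 of 13 partners were tested and 0 were called by limma, with 3 at an unadjusted p under 0.05, again beside 44.6% of all genes. Tcf7l2 differed by 0.18 and Pygo1 by −0.19, while Lef1 and Tcf7 were not detected.

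In the planar polarity and non-canonical list, 8 of 15 genes were tested, 5 with a higher mean and 3 with a lower one. An unadjusted limma p under 0.05 held for 5 of the 8, beside 44.6% of all tested genes. Of those, Vangl2, Prickle1, Rac1 and Nfatc1 were higher and Rock1 lower. Nfatc1, a calcium-dependent transcription factor, was the only call, at 7.46, 7.54 and 7.42 in the controls and 7.92, 7.85 and 7.84 after moR-21. It rose by 0.40 (limma adjusted p = 2.63e-05), but the difference was 0.37 and not called without control 3 or without moR-21 sample 1, and its dimmer probes, at 0.37 and 0.03, were not called either. Vangl2, a planar polarity membrane protein, had a difference of 0.24 and was not called.

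Of 17 genes listed as known beta-catenin targets 7 were tested, 4 with a higher mean and 3 with a lower one, at a median difference of 0.29. Of the lower ones, Nkd1 and Twist1 were each at −0.02. By limma 2 were called, both higher, beside 3.41% of all tested genes called higher and 4.38% lower. An unadjusted limma p under 0.05 held for 5 of the 7, beside 44.6% of all tested genes. Of those, Ccnd1, Wisp2, Cd44 and Jun were higher and Wisp1 lower. Wisp2, a secreted matrix-associated protein that RefSeq now names Ccn5, measured 9.29, 9.29 and 9.20 in the controls and 10.16, 10.26 and 10.14 after moR-21. It rose by 0.92 (standard error 0.050, limma adjusted p = 1.02e-08), 1.90-fold. Cd44, the hyaluronan receptor, measured 7.58, 7.50 and 7.37 against 7.86, 7.92 and 7.90 and rose by 0.41 (limma adjusted p = 5.71e-05), with 0.35 and no call when control 3 was left out. Of 6 Cd44 probes on the array only 1 was tested, and the rest were detected on no array.

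The other target genes did not follow 1 direction. Wisp1, a relative of Wisp2 chosen for mention after its value was seen, had a difference of −0.36 that was called with median scaling or cyclic loess. At a dimmer Wisp1 probe the difference was −0.06. Ccnd1, which encodes cyclin D1, and Jun, chosen in the same way, had differences of 0.29 and 0.30, the latter called with background correction. Dimmer Ccnd1 probes were at 0.37 and 0.18 and were not called. Lef1, Tcf7, Myc, Sp5 and Nkd2 were not detected, like Axin2.

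Lists of cell type markers also differed between the treatments, and their sums were not tested. The summed signal of the smooth muscle list was 10097 to 10459 in the controls and 12835 to 13679 after moR-21, mostly from Acta2, which rose by 0.40. Of the other smooth muscle markers detected on every array, Des had a difference of −0.38, Smtn −0.05 and Cald1 −0.00093, none of them called. The summed mesothelial signal was 771 to 780 in the controls and 402 to 416 after moR-21, with Msln not detected. The change in this sum came mostly from Upk3b, which was called lower (−1.24). Krt19, the other tested mesothelial marker, had a difference of −0.13 and was not called. Of 6 fibroblast markers, all were tested, and the sum was 17592 to 18303 against 15184 to 16028. Thy1 was called higher (0.53) and Lum lower (−0.56). Dcn, Col1a1 and Pdgfra also had lower means (−0.22, −0.20 and −0.17) and were not called. Pi16 was detected on 4 arrays. Its mean was 6.94 in the controls and 6.65 after moR-21, below the lowest detected signal of every array (6.82 to 6.84). No difference is given for it. Of 7 macrophage markers 3 were tested, Cd68 and Ptprc were not detected, and the sum was 1622 to 1688 against 1465 to 1498. Lyz2 was called higher (0.48). Cd14, at a log2 level of 10.43 in the controls, had a difference of −0.27 and Csf1r one of −0.01, neither of them called. The endothelial sum was 383 to 411 against 368 to 382. The part of these shifts in the values of Ryk, Wnt5a and Wisp2 was not tested.

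The probes of other genes whose profile over the 6 samples was nearest to that of Ryk were found by the Euclidean distance between log2 values centred on each probe. The distance was 0.13 for Gtse1, a microtubule-associated protein of dividing cells, 0.17 for Map2k4, a stress-activated kinase, 0.17 for Stx7, an endosomal syntaxin, 0.17 for Fscn1, an actin-bundling protein, and 0.18 for Crk, an adaptor protein. The dimmer probe of Ryk itself was at 0.16. A small distance requires a similar difference between the treatments, and these other genes differed by 0.97 to 1.06. The distances therefore do not show regulation together with Ryk. Gtse1 measured 9.14, 9.20 and 9.15 in the controls and 10.31, 10.05 and 10.22 after moR-21. As at the brighter Ryk probe, moR-21 sample 1 was the highest and sample 2 the lowest of its group, while at the dimmer Ryk probe sample 2 was the highest. None of these genes is on the Wnt lists.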

How the data were processed

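Illumina BeadChip profiles of 6 samples (8 arrays) were used. The authors deposited non-normalized probe intensities, with no background correction stated, and beside each intensity a deposited detection p-value. The study's methods name quantile normalization, lumi and limma, with versions not given in the sources used here. Here quantile normalization over the 8 arrays was followed by the log2, repeat arrays were averaged into their sample, and lmFit and eBayes of limma 3.58.1 (R 4.3.3) were run over all 11651 tested probes with Benjamini-Hochberg adjustment. All columns were assigned to samples by name. Gene symbols are those of the table, and positions and sequences are from RefSeq GRCm38.p6, where 10 of 10 listed genes matched. The code was tested on simulated data. Figures were drawn with matplotlib 3.10.9 in Python 3.11.15.

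The listed genes, the pathway lists and the marker lists were chosen with earlier results of these data known. Named were every listed gene, called pathway genes, the 2 largest differences per role and the 5 profiles nearest to Ryk. The alternatives were normexp correction (offset 16), median scaling, cyclic loess, stricter and no detection filters, array A alone, array B in place of A, a random sample block, eBayes with trend and robust, a replicate block, each sample left out, dimmer probes, an adjusted p under 0.05 with no fold cutoff, and a fold change over 1.5.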

Additional observations from a re-analysis of the deposited data

How the results depend on the processing

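The Ryk difference was 1.04 to 1.14 over 17 alternatives, with 1.04 to 1.12 when 1 sample was left out. As a description, 1 of the 9 listed genes tested in the reported setting lay past the cutoffs in each alternative except the adjusted p under 0.05 with no fold cutoff, which 3 passed (Ctnnb1, Ryk and Sfrp1) beside 36.1% of all tested genes. Of the pathway genes, 5 were called in the reported setting, beside 811 of all 11651 tested probes. With normexp 8 were called (Rspo2, above background in controls only, among them), beside 928 probes. At the adjusted p under 0.05 with no fold cutoff 22 passed, Rspo2 again among them, beside 3943 probes. At a fold change over 1.5 it was 2, beside 260 probes. With 1 sample left out, 3 to 6 were called, beside 772 to 851 probes. Without control 3 it was 3 (Ryk, Wisp2 and Wnt5a), beside 831 probes. With the replicate block 5 pathway genes and 1 listed gene were called, beside 815 of all tested probes, and Ryk was at 1.08. Deviations of samples with the same number correlated at 0.19, 0.04 and 0.06, so the numbers were not taken as pairs, and not every sample correlated best with its own number. Outside the listed genes the direction turned for Gpr177 in 3 alternatives and for Rspo3 in 2, neither of them called. Gpr177 was −0.0074 with the random sample block and −0.085 to 0.12 when 1 sample was left out, below 0 without control 3 or moR-21 sample 1. Rspo3 was 0.012 with array B in place of A and −0.078 to 0.027 when 1 sample was left out, above 0 without moR-21 sample 2. Among the listed genes Lrp6 had no stable sign, at −0.038 to 0.041 when 1 sample was left out, and Fzd7 ran from 0.071 to 0.16. Normexp took the dimmer Ryk probe to 1.22, Fzd2 to 0.14, Sfrp2 to −0.24, the dimmest Ctnnb1 probe to −0.36 and Pygo1 to −0.37. The cause of these shifts was not tested.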
